A study of Mus musculus with 2 samples.

Results

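The caveolin and cavin genes *Cav1*, *Cav2*, *Cavin1*, *Cavin2* and *Cavin3* encode the coat of caveolae. These 5 genes were taken by symbol from the 32285 genes of the count tables, and each was present in the tables and passed the filter on low counts. The study holds 2 single-cell RNA-seq libraries of UV-positive (retinoid-containing) lung cells, sorted by flow cytometry from wild type C57BL/6 mice aged 3 months, with no treatment and no other genotype. The methods of the study place the single-cell experiments on separate occasions, so library and occasion cannot be told apart. How many mice gave each library was not stated. The p-values here rest only on how differences between cell groups varied over these 2 libraries, pooled over the groups of each fit.

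Caveolae are flask-shaped pits of the plasma membrane. Caveolin proteins sit in the inner leaflet as hairpins and, outside striated muscle, caveolae need *Cav1*, while cavin proteins bind caveolins from the cytosol and stabilize the curved membrane. In lung, caveolae are abundant in capillary endothelial cells and alveolar type 1 (AT1) epithelial cells and are also found in fibroblasts and smooth muscle.

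After cells with under 200 genes or over 10% mitochondrial UMIs were left out, 9634 cells remained in library 1 and 9988 in library 2, with medians of 4480 and 7577.5 UMIs per cell. A cell joined a class when it held at least 3 UMIs of the 3 markers of exactly 1 class. Stromal cells (*Col1a2*, *Mfap4*, *Pdgfra*) numbered 7645 and 7438 in libraries 1 and 2, endothelial cells (*Cdh5*, *Pecam1*, *Egfl7*) 56 and 360, epithelial cells (*Epcam*, *Cdh1*, *Lamp3*) 930 and 101, and immune cells (*Ptprc*, *Laptm5*, *Cd52*) 266 and 334. Cells that met more than 1 class rule, 420 and 1640, were left out of the classes. The libraries therefore differed in depth and in the make-up of their cells, and the endothelial class of library 1 was thin, with 119534 UMIs in all. The libraries shared 23 cell barcodes.

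*Cav1* and *Cav2* lie side by side on chromosome 6 in the GRCm38 build, *Cav2* at chr6:17281185-17289115 and *Cav1* at chr6:17306335-17341452, both on the plus strand with 17219 bases between them. The cavin genes lie apart, *Cavin1* at chr11:100956733-100970887 (minus strand), *Cavin2* at chr1:51289126-51302960 (plus strand) and *Cavin3* at chr7:105480083-105482300 (minus strand). The antisense gene *Gm15581* overlaps *Cav1* and *Cav2*, *9330175M20Rik* overlaps *Cavin2*, and *Gm45667* overlaps *Cavin3*. *Gm15581* had 0 UMIs in all 4 classes of both libraries and *9330175M20Rik* had 3 and 5 UMIs in stromal cells, while *Gm45667* was not in the count tables. The sources used here do not state whether counting used strand, so reads of these overlapping genes remain uncertain.

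*Cav1*, *Cav2* and *Cavin2* are 3 of the 4 genes called higher in endothelial than in stromal cells, and the 250 bases before the start of each are printed. *Cavin1*, the other gene called, is left out because both of its RefSeq starts lie inside its GENCODE transcript, as is a later start of *Cav1* that lies inside other transcripts of the gene. The sequences are from RefSeq starts on GRCm38.p6. The set of windows used here held 4 of the 5 genes by symbol and none under the symbol *Cavin3*. Capitals mark matches on either strand to 6 motifs. These are the core promoter motif TATAAA (in 12.4% of 32851 windows of this length), the GC box GGGCGG (32.7%), the ETS core CCGGAA (12.0%), the forkhead motif GTAAACA (3.17%), the AP-1 motif TGACTCA (4.46%) and the E-box CACGTG (6.02%), and no marked matches overlap. The windows are chr6:17306085-17306334, plus strand, for *Cav1*, chr6:17280935-17281184, plus strand, for *Cav2*, and chr1:51288876-51289125, plus strand, for *Cavin2*.
Cav1: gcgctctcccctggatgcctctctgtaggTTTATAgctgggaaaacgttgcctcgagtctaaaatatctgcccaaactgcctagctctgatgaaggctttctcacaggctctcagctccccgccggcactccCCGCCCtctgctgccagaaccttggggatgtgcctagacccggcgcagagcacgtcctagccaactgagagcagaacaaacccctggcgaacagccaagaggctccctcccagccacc
Cav2: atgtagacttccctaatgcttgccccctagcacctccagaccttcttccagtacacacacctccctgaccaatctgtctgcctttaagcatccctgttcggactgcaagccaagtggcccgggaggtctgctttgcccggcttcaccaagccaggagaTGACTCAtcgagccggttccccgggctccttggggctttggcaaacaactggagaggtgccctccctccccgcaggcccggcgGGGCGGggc
Cavin2: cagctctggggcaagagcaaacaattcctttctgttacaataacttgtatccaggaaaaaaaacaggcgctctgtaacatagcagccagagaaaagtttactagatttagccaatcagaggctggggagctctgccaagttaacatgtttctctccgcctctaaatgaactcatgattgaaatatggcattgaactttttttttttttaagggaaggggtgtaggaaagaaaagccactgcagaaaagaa
In the *Cav1* window the letters TTTATA begin 221 bases and CCGCCC 118 bases before the start, both antisense matches. The *Cav2* window holds TGACTCA at 92 bases and GGGCGG at 9 bases before the start, and the *Cavin2* window holds none of the 6 motifs. Of the bases in these windows 59.6% (*Cav1*), 62% (*Cav2*) and 40.4% (*Cavin2*) were G or C, against a median of 52.4% over all windows. A match is a description of letters and not a bound site.

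**Figure D1:**
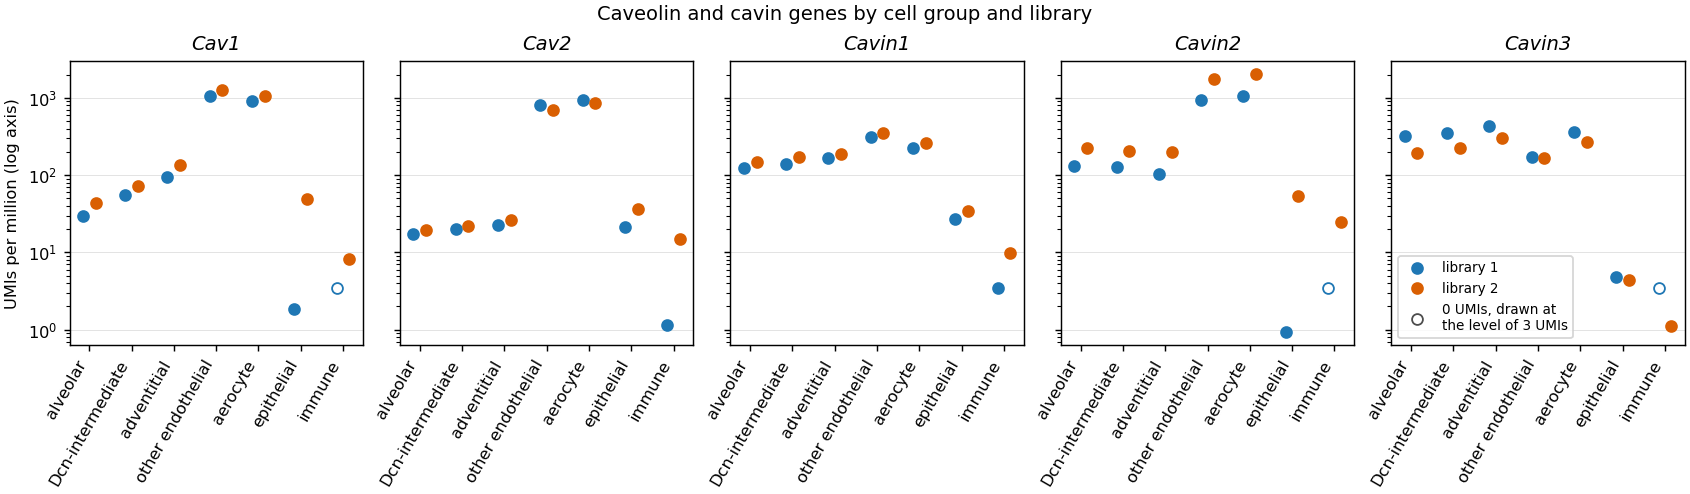
Level of each gene in CPM (UMIs per 1000000, log axis) in 7 cell groups, with 1 point per library and open points for 0 UMIs drawn at the level of 3 UMIs. *Cav1*, *Cav2* and *Cavin2* stood highest in the endothelial groups (*Cav1* at 1070.2 and 1246 in other endothelial cells), and *Cavin1* changed less. *Cavin3* stood at 431 and 298 in adventitial cells, 357 and 270.2 in aerocytes and 169 and 167 in other endothelial cells.

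*Cav1*, the caveolin that caveolae need outside striated muscle, stood at 1029 CPM (UMIs of a gene per 1000000 UMIs of the group) in the endothelial cells of library 1 and 1200.2 in those of library 2, against 44.8 and 65.7 in stromal cells. In epithelial cells it stood at 1.85 and 49.8 CPM, and in immune cells at 0 and 8.27. Both endothelial values lay far above all values of the other classes. The stromal and epithelial classes overlapped, because the epithelial value of library 2 exceeded the stromal value of library 1. This overlap held only with 7 AT1-marker cells, described later. In the other epithelial cells of library 2 *Cav1* stood at 10.7 CPM, below both stromal values. The means were 1115 (SD 121, 2 libraries) in endothelial, 55.3 (SD 14.8) in stromal, 25.8 (SD 33.9) in epithelial and 4.14 (SD 5.85) in immune cells. The range of 1 SD around the epithelial mean thus overlapped those of stromal and immune cells, while within each library stromal cells stood above epithelial cells. Epithelial cells stood above immune cells in library 2. Library 1 gives no order for these classes, with 0 immune UMIs, where 3 UMIs make 3.42 CPM.

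A *Cav1* UMI was found in 83.9% and 93.9% of endothelial cells (median depth 1899.5 and 4028.5 UMIs) and in 14.7% and 27.9% of stromal cells (4297 and 7083.5 UMIs). Immune cells, which stand here for cells with little *Cav1*, held one in 0% and 3.29% of cells (3024 and 4552 UMIs). With each cell thinned to 2000 UMIs the shares were 92.3% and 85.6% in endothelial, 6.77% and 9.17% in stromal, and 0% and 1.61% in immune cells. Too shallow for thinning were 30 and 48 endothelial, 778 and 43 stromal, and 81 and 24 immune cells. At equal depth the endothelial share stayed near that of most cells, and the stromal share stayed above the immune share in both libraries.

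*Cav2*, which forms mixed oligomers with the *Cav1* protein, stood at 845 and 733 CPM in endothelial cells, 18.6 and 21.1 in stromal, 21.2 and 36.6 in epithelial and 1.14 and 14.9 in immune cells. Endothelial values were again far above the rest, and the epithelial values were both above the stromal ones. In library 2 this held only with 7 AT1-marker cells, described later, as *Cav2* stood at 16.1 CPM in the other epithelial cells. Among the 5 genes *Cav2* differed least between the libraries in stroma, at a mean of 19.8 CPM (SD 1.79). Thinned to 2000 UMIs, 73.1% and 73.7% of endothelial and 3.48% and 3.89% of stromal cells held a *Cav2* UMI, against 0% and 1.94% of immune cells. Without thinning these shares were 76.8% and 86.1%, 7.84% and 14.2%, and 0.376% and 7.49%.

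*Cavin1*, the cavin that caveolae need in all tissues studied, stood at 293 and 331 CPM in endothelial cells, 133 and 158 in stromal, 27.1 and 34.4 in epithelial and 3.42 and 9.93 in immune cells. The 4 classes kept this order in both libraries with no overlap. *Cavin2*, which helps to curve the membrane, stood at 970.4 and 1811 CPM in endothelial, 124 and 217 in stromal, 0.925 and 54.2 in epithelial and 0 and 24.8 in immune cells. Every class was higher in library 2 for *Cavin2*, and the endothelial values still lay above all others.

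*Cavin3*, which binds *Cavin1* protein, had another order. It stood at 347 and 219.9 CPM in stromal cells, 218 and 192 in endothelial, 4.74 and 4.39 in epithelial and 0 and 1.10 in immune cells. Stromal cells were the higher class in each library, although the stromal value of library 2 nearly equalled the endothelial value of library 1. Thinned to 2000 UMIs, 48.1% and 32.9% of stromal and 34.6% and 24.4% of endothelial cells held a *Cavin3* UMI, against 0% of immune cells in both libraries. Without thinning the shares were 69.1% and 71.9% of stromal, 33.9% and 39.4% of endothelial, and 0% and 0.599% of immune cells.

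In endothelial over stromal cells, 4 of the 5 genes were higher at an adjusted p under 0.05 (edgeR) and 0 were lower, where 14.7% of the 11832 genes tested were higher and 17.4% lower. The median log2 fold change was 2.63 over the 5 genes and -0.12 over all genes tested. *Cav2* differed most, at a log2 fold change of 5.04 (32.8-fold, SE 0.323, adjusted p = 1.96e-12), followed by *Cav1* at 4.05 (16.5-fold, SE 0.521, adjusted p = 5.71e-07). The change was smaller for *Cavin2*, at 2.63 (SE 0.543, adjusted p = 0.000354), and smallest among those called for *Cavin1*, at 0.85 (SE 0.238, adjusted p = 0.00662). *Cavin3*, at -0.63 (SE 0.254), missed the threshold with an adjusted p of 0.0623, and was the 1 gene lower at an unadjusted p under 0.05. DESeq2 called 3 genes higher and 0 lower. The fold changes of both caveolins were larger than those of the 3 cavins, a difference between genes that was not tested.

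The smaller calls in this comparison depended on the settings. *Cavin1* was no longer called with no filter on low counts (log2 fold change 0.58, adjusted p = 0.166) or without a library term (0.87, adjusted p = 0.0664). *Cavin2* was no longer called by DESeq2 (2.67, adjusted p = 0.305) or without a library term (2.82, adjusted p = 0.093). *Cavin3* became a call for lower levels with no filter (-0.91, adjusted p = 0.0124), with 5 marker UMIs per class rule (-0.75, adjusted p = 0.0257) and without the 10% of cells with most UMIs (-0.73, adjusted p = 0.0345). *Cav1* and *Cav2* were called in all 12 alternatives with a test.

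Markers of other cells were present in these classes. Stromal markers in endothelial cells were detected for 5 of 7 genes in library 1 (176 CPM in sum, *Mfap4* most abundant at 66.9, *Pdgfra* and *Pdgfrb* at 0) and 7 of 7 in library 2 (137 CPM, *Mfap4* 31.9). The class rule itself keeps *Col1a2*, *Mfap4* and *Pdgfra* under 3 UMIs per cell there. Alveolar fibroblast markers, which it does not limit, stood at 594 and 333 CPM (4 of 4 in each, *Inmt* 427 and 214), and AT2 markers at 552 and 149 (2 of 4 and 4 of 4, *Sftpc* 519 and 107). Endothelial markers in stromal cells were detected for 7 of 7 genes in both libraries, at 27.5 and 28.2 CPM in sum, with *Ramp2* most abundant at 23.1 and 16.2. Lymphatic markers differed between the libraries, with 0 of 3 genes detected in the endothelial cells of library 1 and 3 of 3 in library 2 (699 CPM, *Ccl21a* 589). AT1 markers were higher in endothelial cells, at 761 and 1011 CPM (2 of 5 and 5 of 5 detected, *Hopx* most abundant at 753 and 813, *Rtkn2*, *Aqp5* and *Pdpn* at 0 in library 1), than in stromal cells, at 88.6 and 117 (5 of 5 in each, *Hopx* 59.6 and 75.8). In library 1 that rested on *Hopx*, as the rest of the list was not higher in endothelial cells, where 3 UMIs make 25.1 CPM. In library 2 the rest of the list was higher there too. The part of these markers' cells in the levels of *Cav1* and the other genes was not tested.

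**Figure D2:**
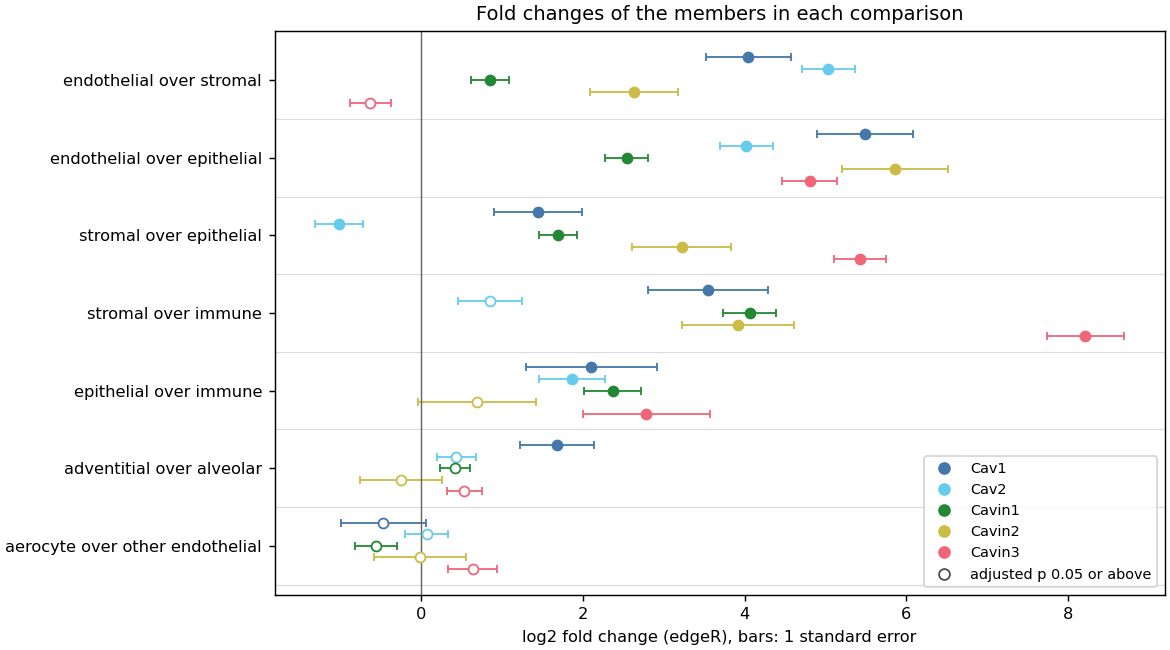
log2 fold change of each gene (x axis) in 7 comparisons (y axis), with bars of 1 standard error and open points for an adjusted p of 0.05 or above. *Cav1* and *Cav2* lie far to the right in endothelial over stromal cells (4.05 and 5.04), *Cavin3* does so in stromal over immune cells (8.22), and no point is filled in aerocyte over other endothelial cells.

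The comparisons share classes, so their values are set side by side and not counted as separate support. In endothelial over epithelial cells, 5 of 5 genes were higher and 0 lower, where 20% of 11832 genes were higher and 19.7% lower. No gene was lower at an unadjusted p under 0.05 (0 of 5, edgeR), and DESeq2 called 5 higher and 0 lower. The log2 fold change was 5.49 for *Cav1*, 4.02 for *Cav2*, 2.54 for *Cavin1*, 5.86 for *Cavin2* and 4.80 for *Cavin3*, and the adjusted p was at most 5.44e-08. The fit scales the sums by TMM factors, which were 0.714 and 0.796 in epithelial and 1.37 and 1.27 in endothelial sums, so the fitted values differ from ratios of plain CPM. For *Cav1* the log2 ratio of CPM was 9.12 in library 1 and 4.59 in library 2, and for *Cavin2* 10.0 and 5.06. For *Cavin1* these ratios were 3.44 and 3.26, for *Cav2* 5.32 and 4.32, and for *Cavin3* 5.52 and 5.45.

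In stromal over epithelial cells, 4 of the 5 genes were higher and 1 lower, where 24.2% of genes were higher and 21.8% lower. *Cavin3* was higher by a log2 fold change of 5.43 (43.2-fold, SE 0.323, adjusted p = 1.76e-13), *Cavin2* by 3.22 (SE 0.614, adjusted p = 8.94e-05), *Cavin1* by 1.69 (SE 0.238, adjusted p = 1.24e-06) and *Cav1* by 1.44 (SE 0.548, adjusted p = 0.0335). *Cav2* was lower, at -1.01 (SE 0.297, adjusted p = 0.00641), with log2 CPM ratios of -0.19 in library 1 and -0.79 in library 2. DESeq2 called 2 genes higher and 0 lower. The library ratios of *Cavin1* (2.30 and 2.20) and *Cavin3* (6.19 and 5.65) were alike, and those of *Cav1* (4.60 and 0.40) and *Cavin2* (7.07 and 2.00) were not.

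Several of these epithelial calls ended under other settings. In the fits of thinned cells the class rules were applied again after thinning, so that depth and the cells of each class changed together (epithelial cells from 930 to 580 in library 1). *Cav1* was no longer called by DESeq2 (1.61, adjusted p = 0.327), with RLE factors (1.35, adjusted p = 0.0799), without a library term (0.82, adjusted p = 0.562), at a 5% mitochondrial limit (1.29, adjusted p = 0.0925) or in thinned cells (1.02, adjusted p = 0.209). *Cav2* was no longer called by DESeq2 (-1.09, adjusted p = 0.174), without a library term (-1.04, adjusted p = 0.105), in thinned cells (-1.01, adjusted p = 0.056) or with totals in place of TMM factors (-0.46, adjusted p = 0.226). *Cavin2* was no longer called by DESeq2 (3.86, adjusted p = 0.0674) or without a library term (2.33, adjusted p = 0.151).

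Much of the epithelial *Cav1* and *Cavin2* in library 2 lay in few cells. Epithelial cells with more UMIs of the AT1 markers *Ager*, *Hopx* and *Rtkn2* than of the type 2 (AT2) markers *Lamp3*, *Abca3* and *Slc34a2* numbered 2 in library 1 and 7 in library 2. The 7 cells held 54 of the 68 *Cav1* UMIs and 65 of the 74 *Cavin2* UMIs of the class, at 916 and 1103 CPM, and 29 of its 50 *Cav2* UMIs at 492 CPM. *Cavin1* stood at 204 CPM there (12 UMIs) and *Cavin3* at 33.9 (2 UMIs). In the 94 other epithelial cells of library 2, *Cav1* stood at 10.7 CPM, *Cav2* at 16.1, *Cavin1* at 26.8, *Cavin2* at 6.89 and *Cavin3* at 3.06. In the 928 such cells of library 1 the levels were 1.74, 21.1, 27.1, 0.926 and 4.40 CPM in the same order of genes. The AT1-marker cells of library 2 were thus nearer to the endothelial than to the stromal level of *Cav1* and *Cavin2*, and far below both levels of *Cavin3*.

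These 7 cells held all 5 AT1 markers (24756 CPM in sum, *Ager* most abundant at 14219) beside 4 of 4 AT2 markers (30202 CPM, *Sftpc* 28081). Of the 7 endothelial markers 0 were detected in them, and of the 5 general capillary markers also 0, although the class rule itself allows under 3 UMIs of *Cdh5*, *Pecam1* and *Egfl7*. Stromal markers were detected for 5 of 7 genes (102 CPM, *Tcf21* most abundant at 33.9, *Col1a1* and *Pdgfrb* at 0) and alveolar fibroblast markers for 4 of 4 (1069 CPM, *Npnt* 458). The part of other cells in the levels of *Cav1* and *Cavin2* here was not tested. The 2 cells of library 1 held 1 *Cav1* UMI and 0 *Cavin2* UMIs, with AT2 markers at 256308 CPM and AT1 markers at 2452, and so do not repeat this measurement. Without the AT1-marker cells, an alternative chosen after seeing the data, endothelial over epithelial rose to 7.30 for *Cav1* and 8.28 for *Cavin2*, and stromal over epithelial to 3.22 (adjusted p = 1.77e-08) and 5.56 (adjusted p = 1.19e-12). *Cav2* in stromal over epithelial cells was then -0.58 (adjusted p = 0.107) and no longer called.

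Immune cells held few UMIs of these genes. In library 1 the immune class held 4 UMIs of the 5 genes together, and in library 2 it held 107. In stromal over immune cells, 4 of 5 genes were higher and 0 lower, where 27.1% of genes were higher and 23.7% lower, and at an unadjusted p under 0.05 (edgeR) 5 were higher and 0 lower, with 4 and 0 by DESeq2. *Cavin3* differed most, with 8.22 on the log2 scale (SE 0.478, adjusted p = 1.34e-13), with 11843 and 12888 UMIs in stromal against 0 and 2 in immune cells. Over the 12 alternatives with a test it ranged from 3.54 (thinned cells) to 8.47 and was called in all 12. The classes formed after thinning held 204 and 364 immune cells in place of 266 and 334, so a part of depth alone was not measured. *Cavin1* (4.06), *Cavin2* (3.92) and *Cav1* (3.55) followed, all with an adjusted p of at most 0.000238, and were lowest in thinned cells too, at 2.58, 2.94 and 1.66. With the 0 immune UMIs of library 1 put at 3, the log2 CPM ratios were at least 6.66 for *Cavin3*, 3.71 for *Cav1* and 5.19 for *Cavin2* there, and 7.64, 2.99 and 3.13 in library 2. For *Cavin1* they were 5.28 and 3.99. *Cav2*, at 0.85 (SE 0.398, adjusted p = 0.0787), was called with no filter on low counts (1.03, adjusted p = 0.0261), with 0 UMIs of the markers of other classes (1.55, adjusted p = 0.0163) and with totals in place of TMM factors (1.10, adjusted p = 0.0353). Its log2 CPM ratio was 4.03 in library 1, on 1 immune UMI, and 0.50 in library 2.

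In epithelial over immune cells, 4 of 5 genes were higher and 0 lower, where 24.0% of genes were higher and 23.4% lower. No gene was lower at an unadjusted p under 0.05 (0 of 5, edgeR), and DESeq2 called 3 higher and 0 lower. *Cavin1* (log2 fold change 2.37, adjusted p = 3.4e-06) and *Cav2* (1.87, adjusted p = 0.000479) were called in all 13 alternatives with a test, although their log2 CPM ratios differed between libraries 1 and 2, at 2.98 and 1.79 for *Cavin1* and 4.21 and 1.30 for *Cav2*. *Cav1* (2.10, adjusted p = 0.0342) was called in 5 of 13, and without the AT1-marker cells it was 0.08 (adjusted p = 0.938). *Cavin3* (2.78, adjusted p = 0.00478) was 1.03 (adjusted p = 0.148) with 5 marker UMIs and -0.08 (adjusted p = 0.957) in thinned cells, with ratios of at least 0.47 in library 1 and 1.99 in library 2. *Cavin2* (0.69, adjusted p = 0.461) was called higher in a fit of these classes alone (1.39, adjusted p = 0.0129), and turned to -1.99 (adjusted p = 0.00393) without the AT1-marker cells. Immune *Cavin2* in library 2 came to 29 UMIs (50.7 CPM) in cells with more lymphoid than myeloid markers and 8 UMIs (8.01 CPM) in myeloid-marker cells. A *Cavin2* UMI was found in 8 of 140 (5.71%) and 8 of 150 (5.33%) of these cells, at median depths of 3559.5 and 5935 UMIs, and in thinned cells in 5 of 131 (3.82%) and 2 of 140 (1.43%), with 9 and 10 too shallow. The 29 UMIs thus lay in 8 cells, and the intervals of the thinned shares overlapped (1.25% to 8.68% and 0.173% to 5.07%). The immune cells of library 2 in neither group held 8 *Cavin2* UMIs in 4 of 44 cells (9.09%), and 3 of 39 thinned cells (7.69%) held one. Those 140 lymphoid-marker cells held 7 of 7 endothelial markers at 87.4 CPM (*Pecam1* 52.4) and 1 of 2 platelet markers at 1.75 CPM (*Ppbp*, with *Pf4* at 0). AT1 markers stood at 346 CPM in them (5 of 5, *Hopx* 161) against 99.1 in myeloid-marker cells (5 of 5, *Hopx* 64.1), and the part of these markers' cells was not tested.

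**Figure D3:**
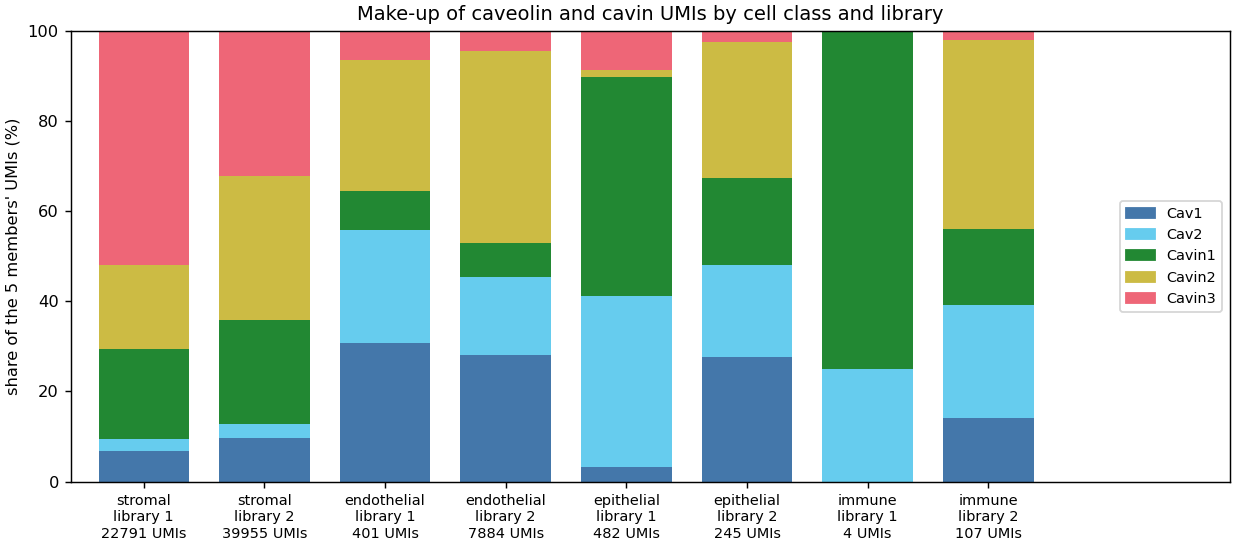
Share of the UMIs of the 5 genes taken by each gene (y axis, percent) in 4 classes and 2 libraries, with the number of UMIs under each bar. *Cavin3* took 52.0% and 32.3% in stromal against 6.48% and 4.49% in endothelial cells, and the bar of immune cells in library 1 rests on 4 UMIs.

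The make-up of these UMIs differed between the classes within each library. *Cav1* made up 6.70% and 9.64% of them in stromal and 30.7% and 28.1% in endothelial cells, and *Cav2* 2.78% and 3.1% against 25.2% and 17.2%. *Cavin3* went the other way, with 52.0% and 32.3% in stromal and 6.48% and 4.49% in endothelial cells. *Cavin1* also took a smaller share in endothelial cells, 8.73% and 7.75% against 19.9% and 23.2%, although its CPM was higher there, so a smaller share need not be a lower level. The 95% intervals, which carry counting error alone, did not overlap between stromal and endothelial cells for any of the 5 genes in either library. In epithelial cells of library 1 *Cavin1* took 48.5% and *Cav2* 38.0% of 482 UMIs, while *Cavin2* took 1.66%. In library 2 *Cavin2* took the largest share, 30.2% of 245 UMIs, before *Cav1* (27.8%), *Cav2* (20.4%) and *Cavin1* (19.2%). The make-up of the whole epithelial class thus did not repeat between the libraries. The 7 AT1-marker cells of library 2 held 162 of these 245 UMIs. In the other epithelial cells of library 2 *Cavin1* (42.2% of 83 UMIs) and *Cav2* (25.3%) led, as in library 1, before *Cav1* (16.9%) and *Cavin2* (10.8%). The part of each gene's transcripts that was captured was not measured, so these shares compare the same gene between classes and not genes with each other.

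Within stroma, cells were grouped by *Dcn*, with at least 3 UMIs for adventitial, 1 or 2 for intermediate and 0 for alveolar cells. *Cav1* stood at 93.4 and 137 CPM in adventitial, 54.7 and 71.6 in intermediate, and 29.8 and 43.2 in alveolar cells. It rose with *Dcn* in both libraries, and both adventitial values lay above all values of the other stromal groups. In adventitial over alveolar cells 1 of the 5 genes was higher and 0 lower, where 7.25% of 13130 genes were higher and 4.65% lower. That gene was *Cav1*, at a log2 fold change of 1.69 (3.22-fold, SE 0.457, adjusted p = 0.0152), with log2 CPM ratios of 1.65 and 1.66. At an unadjusted p under 0.05 (edgeR) 3 genes were higher and 0 lower.

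Over the 13 alternatives with a test the *Cav1* difference between adventitial and alveolar cells ranged from 1.65 to 1.75 and was called in 11. It was not called by DESeq2 (1.73, adjusted p = 0.435), which called 1 other gene, *Cavin1*, higher (0.46, adjusted p = 0.0431) and 0 lower. Without a library term the *Cav1* value was 1.68 (adjusted p = 0.572). In a fit of these groups alone *Cav2* (0.45, adjusted p = 0.024), *Cavin1* (0.43, adjusted p = 0.0142) and *Cavin3* (0.55, adjusted p = 0.00416) were called higher too, and with RLE factors *Cavin3* was (0.58, adjusted p = 0.0483).

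The other genes changed less along *Dcn*. *Cavin3* stood at 431 and 298 CPM in adventitial and 323 and 195 in alveolar cells (log2 fold change 0.54, adjusted p = 0.139). *Cavin1* stood at 167 and 185 against 122 and 147 (0.42, adjusted p = 0.177), and *Cav2* at 22.6 and 26.3 against 17.2 and 19.4 (0.44, adjusted p = 0.305). For these 3 genes the adventitial value was the higher in each library, while *Cavin2* was lower there, at 103 and 198 against 129.9 and 225 CPM (-0.25, adjusted p = 0.844).

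**Figure D4:**
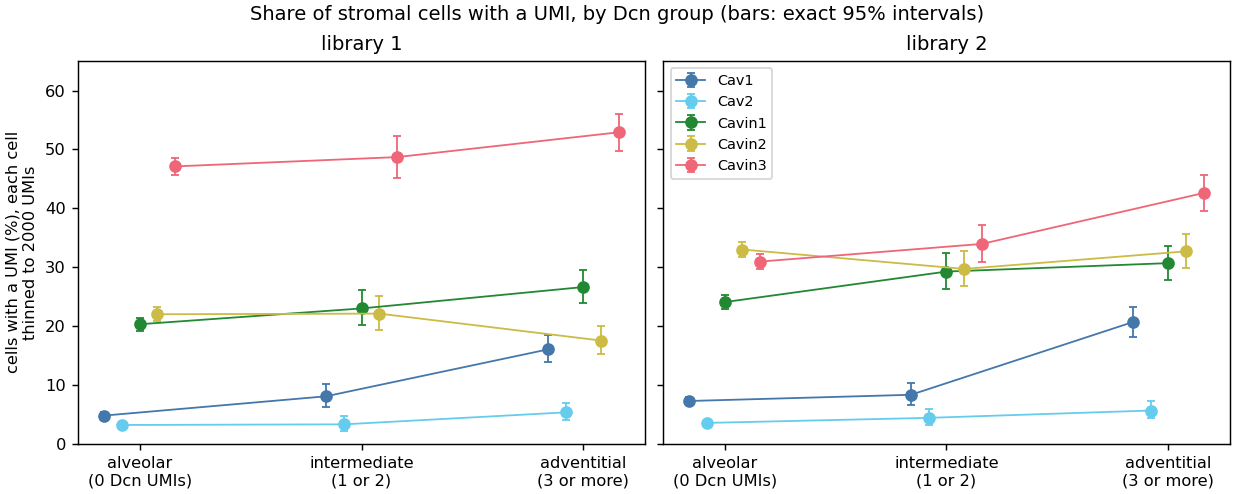
Share of stromal cells with a UMI of each gene (y axis, percent) after thinning each cell to 2000 UMIs, by *Dcn* group (x axis) and library (panels), with exact 95% intervals as bars. The *Cav1* share rises from 4.75% to 16% in library 1 and from 7.23% to 20.6% in library 2.

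Adventitial cells were deeper than alveolar cells, with medians of 6034 and 10655.5 UMIs against 3958 and 6545. Unthinned, a *Cav1* UMI was found in 38.7% and 62.8% of adventitial and 9.66% and 20.1% of alveolar cells. Thinned to 2000 UMIs, the shares were 16% and 20.6% in adventitial, 8.03% and 8.29% in intermediate, and 4.75% and 7.23% in alveolar cells, where immune cells had 0% and 1.61%. Too shallow were 17 and 0 adventitial, 26 and 2 intermediate, and 735 and 41 alveolar cells. The step in *Cav1* between alveolar and adventitial cells thus remained at equal depth in each library. In library 1 the intervals were 13.8% to 18.4% against 4.18% to 5.38%. They carry counting error over the cells of that library alone and not the spread between libraries.

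Endothelial markers did not follow the same course between the libraries. They summed to 45.7 and 24.7 CPM in adventitial cells (4 of 7 and 7 of 7 detected, *Ramp2* most abundant at 43.8 and 17.0) and to 23.1 and 29.4 in alveolar cells (7 of 7 detected in each, *Ramp2* 18.3 and 15.7). The change of order rested on *Ramp2*, as the rest of this list summed lower in adventitial cells in both libraries. In library 1 *Cdh5*, *Tie1* and *Emcn* were at 0 UMIs in adventitial cells, and the class rule itself keeps *Cdh5*, *Pecam1* and *Egfl7* under 3 UMIs per cell. Mural markers summed lower in adventitial cells, at 288 and 289 CPM (8 of 8 and 7 of 8 detected, *Kcnj8* and *Tagln* most abundant at 106 and 104), than in alveolar cells, at 667 and 735 (7 of 8 and 8 of 8, *Tagln* 622 and 598). That difference rested on *Tagln*, because the 7 other mural markers summed higher in adventitial cells, at 195 and 185 CPM against 45.1 and 137. Not every one of them was higher, as *Myh11* was at 0 in adventitial cells of library 2 and was detected in alveolar cells there. Mesothelial markers were higher in adventitial cells of library 1, at 6.64 CPM (3 of 3, *Msln* 4.11) against 0.128 (1 of 3, *Upk3b*), and rested on 1 UMI in each group of library 2. Erythroid markers were lower in adventitial cells, at 0.632 and 2.16 CPM (2 of 4 and 4 of 4, *Hba-a1* 0.316 and *Hbb-bs* 1.04) against 85.3 and 300.4 (4 of 4 in each, *Hbb-bs* 52.8 and 188). The part of all these markers' cells in the *Cav1* difference was not tested.

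Among adventitial cells, those with a *Pi16* UMI (227 and 79 cells) held *Cavin3* at 551 and 437 CPM, against 397 and 285 in those without (790 and 919 cells). *Cavin2* went the other way, at 56.2 and 178 against 116 and 199 CPM. *Cav1* stood at 99.7 and 187 against 91.6 and 132. *Cavin3* and *Cav1* were thus higher and *Cavin2* lower in *Pi16*+ cells in both libraries, which was described with no test. Mural markers were higher in *Pi16*+ cells as well, at 401 and 613 CPM (5 of 8 and 6 of 8 detected, *Kcnj8* 166 and *Acta2* 275 most abundant, *Myh11* and *Notch3* at 0 in both libraries and *Cox4i2* in library 1) against 255 and 258 (8 of 8 and 7 of 8, *Tagln* 89.9 and 101). So were endothelial markers, at 68.1 and 44.7 CPM (3 of 7 and 4 of 7, *Ramp2* 66.7 and 36.8, *Cdh5*, *Tie1* and *Emcn* at 0 in both libraries and *Pecam1* in library 1) against 39.1 and 22.8 (4 of 7 and 7 of 7, *Ramp2* 37.1 and 15.1). AT1 markers stood at 98.3 and 111 CPM (4 of 5 and 5 of 5, *Pdpn* 85.7 and 96.5) against 72.2 and 68.0 (5 of 5 in each, *Pdpn* 56.7 and 41.8). The higher AT1 sum rested on *Pdpn*, as the rest of that list summed lower in *Pi16*+ cells in both libraries. Alveolar fibroblast markers were lower in *Pi16*+ cells, at 3965 and 5009 CPM (4 of 4 in each, *Inmt* 3150 and 3873) against 7726 and 6983 (4 of 4 in each, *Inmt* 6191 and 4983). The part of these markers' cells in the differences was not tested.

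Mural-marker cells had at least 3 UMIs of *Myh11*, *Cnn1*, *Cox4i2* and *Notch3* together and 0 UMIs of the endothelial, epithelial and immune markers. They numbered 7 and 41, of which 4 and 21 were in the stromal class (0 of them adventitial) and 3 and 20 met no class rule. They held *Cavin3* at 461 and 398 CPM and *Cavin1* at 98.9 and 312, and *Cav1* at 0 and 235. In library 1 their mural markers (3362 CPM, 7 of 8 detected, *Cox4i2* most abundant at 1648, *Cnn1* at 0) stood below their stromal markers (6954 CPM, 7 of 7, *Mfap4* 2208) and alveolar fibroblast markers (7448 CPM, 4 of 4, *Inmt* 4845). In library 2 mural markers stood at 19764.5 CPM (8 of 8, *Acta2* 8669), above the 4099 (7 of 7, *Mfap4* 1011) and 4119 (4 of 4, *Inmt* 2629.9) of the other lists. The levels in library 1 rest on 30342 UMIs, in which 3 UMIs make 98.9 CPM.

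Within endothelium, aerocytes (*Car4* and *Ednrb* UMIs above *Gpihbp1* and *Plvap* UMIs) numbered 11 and 66 and other endothelial cells 45 and 294. *Cavin3* stood at 357 and 270.2 CPM in aerocytes and 169 and 167 in other endothelial cells. *Cav1* stood at 910.0 and 1053 against 1070.2 and 1246, and *Cavin1* at 227 and 259 against 315 and 353. *Cavin3* was thus the higher in aerocytes in each library and *Cav1* and *Cavin1* the lower. *Cav2* stood at 942 and 845 against 811 and 699 CPM, and *Cavin2* at 1040.0 and 2031 against 946 and 1742.

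None of these differences was called. In aerocyte over other endothelial cells 0 of 5 genes were higher and 0 lower by edgeR, where 1.11% of 13130 genes were higher and 1.13% lower. At an unadjusted p under 0.05, 1 gene was higher (*Cavin3*, log2 fold change 0.64, SE 0.303, adjusted p = 0.386) and 1 lower (*Cavin1*, -0.56, SE 0.261, adjusted p = 0.380), and DESeq2 called 0 and 0. The values were -0.47 for *Cav1*, 0.07 for *Cav2* and -0.01 for *Cavin2*, and the last changed sign in 6 alternatives. Thinned to 2000 UMIs, a *Cavin3* UMI was found in 66.7% and 49.2% of aerocytes and 17.6% and 18.3% of other endothelial cells, against 0% of immune cells. Unthinned, the shares were 72.7% and 77.3% against 24.4% and 31.0%, at median depths of 2498 and 6276 against 1843 and 3712.5 UMIs. Thinning left 9 and 61 aerocytes and 17 and 251 other endothelial cells, with 2 and 5, and 28 and 43, too shallow. The lymphatic markers of library 2 lay in the other endothelial cells (3 of 3 genes, 915 CPM, *Ccl21a* 772) and were at 0 in aerocytes.

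Other markers differed between these groups in both libraries. AT1 markers stood at 1852 and 1623.5 CPM in aerocytes (1 of 5 and 3 of 5, *Hopx* 1852 and 1566) against 383 and 821 in other endothelial cells (2 of 5 and 5 of 5, *Hopx* 372 and 580.3). That difference rested on *Hopx*, as the rest of the list was not higher in aerocytes in either library. In library 1 *Ager*, *Rtkn2*, *Aqp5* and *Pdpn* were at 0 in aerocytes, where 3 UMIs make 97.5 CPM. Stromal markers were lower in aerocytes, at 32.5 and 77.9 CPM (1 of 7 and 7 of 7, *Col3a1* 32.5 and *Mfap4* 27.5) against 225 and 155 (5 of 7 and 7 of 7, *Mfap4* 90.1 and 33.3). Mural markers were lower too, at 0 and 55.0 CPM (0 of 8 and 3 of 8, *Myh11* 20.6) against 45.1 and 214 (2 of 8 and 7 of 8, *Tagln* 33.8 and *Cox4i2* 84.3). Alveolar fibroblast markers stood at 162 and 192 CPM in aerocytes (2 of 4 and 4 of 4, *Inmt* 130 and 153) against 744 and 376 (4 of 4 in each, *Inmt* 529 and 232). AT2 markers stood at 292 and 137 CPM (2 of 4 and 3 of 4, *Sftpc* 260 and 98.5) against 642 and 153 (2 of 4 and 4 of 4, *Sftpc* 608 and 109). The part of all these markers' cells in the levels of *Cavin3*, *Cav1* and *Cavin1* was not tested.

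The libraries differed in stroma for some of these genes. *Cavin2* was higher in library 2 in adventitial, intermediate and alveolar cells, by log2 ratios of 0.93, 0.71 and 0.79, above those of 94.2%, 87.5% and 92.4% of genes with at least 20 CPM. *Cavin3* was lower in library 2, by -0.53, -0.64 and -0.72, above 9.20%, 6.22% and 4.93% of genes. The median gene stood at 0.15, 0.12 and 0.09. *Cavin2* and *Cavin3* thus lay toward opposite ends of the genes compared (5905, 5898 and 5967), and *Cav2* and *Cavin1* lay near the middle. *Cav1* was higher in library 2, by 0.55, 0.38 and 0.52, above 77.3%, 69.3% and 81.1% of genes. With 2 libraries, a difference between mice, one between preparations and one between occasions cannot be told apart.

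**Figure D5:**
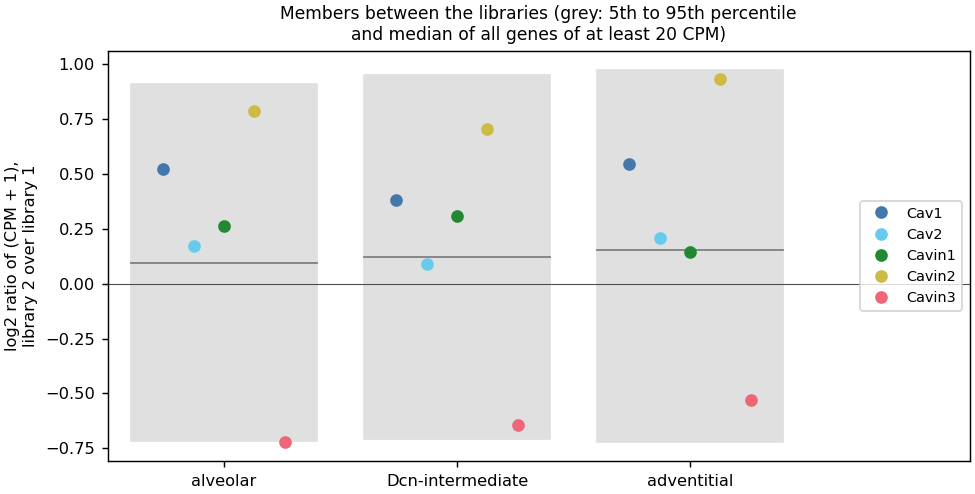
log2 ratio of CPM + 1 in library 2 over library 1 (y axis) for each gene in 3 stromal groups (x axis), with the 5th to 95th percentile and the median of all genes of at least 20 CPM in grey. *Cavin2* lies high (0.93 in adventitial cells) and *Cavin3* low (-0.72 in alveolar cells).

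Over all kept cells, *Cav1* stood at 40.3 CPM in library 1 and 227 in library 2, a larger difference than in stromal or endothelial cells alone. Cells that met both the endothelial and the stromal rule numbered 89 and 1144, with median depths of 6025 and 16770 UMIs. In library 2 they held 14440 of the 21273 *Cav1* UMIs, and in library 1 they held 208 of 1963. Their *Cav1* level was 371 and 699 CPM and their *Cavin2* level 437 and 1124 CPM, between the stromal and endothelial levels in each library. *Cavin3* stood at 216 and 137 CPM in them, near the endothelial level of 218 in library 1 and below the 192 of library 2. No caller of doublets was run, and these cells entered no class.

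Across the 14 sums of 7 cell groups and 2 libraries, levels of the 5 genes moved together to different degrees. Pearson's r of log2(CPM + 1) was 0.964 for *Cav1* with *Cavin2*, 0.937 for *Cavin1* with *Cavin3* and 0.902 for *Cav1* with *Cav2*, and lowest for *Cav2* with *Cavin3*, at 0.489. The sums share libraries and depth, and r is given as a description over 14 sums. Among 6363 genes, the most like *Cav1* were *Pxdn* (0.973), *Cavin2*, *Rasal2* (0.961), *Card10* (0.957) and *Bmpr2* (0.947), and the most like *Cav2* were *Ctnna1* (0.986), *Sema3f* (0.973), *Caskin2* (0.971), *Card10* (0.963) and *Smad6* (0.963). For *Cavin1* they were *Dlc1* (0.993), *Ehd2* (0.986), *S100a16* (0.984), *Sptbn1* (0.977) and *Cdc42ep1* (0.974). For *Cavin2* they were *Clic4* (0.980), *Sbf2* (0.965), *Cav1*, *Csnk1a1* (0.963) and *Csnk2a1* (0.956), and for *Cavin3* *Gstm1* (0.991), *Lhfp* (0.987), *Pam* (0.983), *Selenof* (0.980) and *Mettl24* (0.978). The lists of *Cav1* and *Cavin2* held each other, and *Card10* stood in those of both caveolins. At a pseudocount of 10 neither held, as 2 of the 5 genes changed for *Cav1* and for *Cavin2*, and *Card10* left both lists.

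*Ehd2*, which encodes an ATPase at the neck of caveolae, stood beside *Cavin1* at 218 and 250.0 CPM in endothelial and 144 and 163 in stromal cells. Its log2 fold change of 0.37 was not called (adjusted p = 0.262). Of 9 genes for partners of the caveola coat, 8 were tested, and in endothelial over stromal cells 2 were higher and 3 lower, where 14.7% of all genes were higher and 17.4% lower, and the median log2 fold change was 0.50 against -0.12. *Ehd4*, a relative of *Ehd2*, was higher, at 1539 and 1785 against 8.56 and 12.4 CPM (7.08, adjusted p = 2.04e-15), and *Dnm2*, a dynamin, at 109 and 140.1 against 45.4 and 53.6 (1.20, adjusted p = 0.000433). *Pacsin3* was lower, at 0 and 2.71 against 17.8 and 16.5 CPM (-2.84, adjusted p = 0.000354), as was *Flna*, a filamin, at 50.2 and 70.9 against 237 and 290.3 (-2.23, adjusted p = 3.8e-07).

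*Cav3*, the caveolin of striated muscle, was the other partner called lower, at 0 UMIs in endothelial and 13.7 and 11.3 CPM in stromal cells. In endothelial sums 3 UMIs make 25.1 and 1.62 CPM, so a level as in stroma could be seen in library 2 and not in library 1. *Cav3* was also at 0 UMIs in epithelial and immune cells. Within stroma it stood at 20.7 and 21.5 CPM in adventitial against 11.4 and 7.68 in alveolar cells (log2 fold change 1.21, SE 0.201, adjusted p = 0.000267), and so rose with *Dcn* as *Cav1* did. It was the 1 of 8 partners called higher there, with 0 lower, where 7.25% of all genes were higher and 4.65% lower, and the list median was 0.10 against -0.03 over all genes. *Ehd1* was the 1 partner called in aerocyte over other endothelial cells, where 1.13% of all genes were lower, at -1.55 (adjusted p = 0.0392).

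Of 10 receptors and enzymes described in caveolae, 7 were higher and 2 lower in endothelial over stromal cells (14.7% and 17.4% of all genes), with a median of 4.03 against -0.12. The largest changes were those of *Plvap* (9.46, a gene used to divide the endothelial cells), the VEGF receptor *Kdr* (8.86), the fatty acid transporter *Cd36* (8.10) and the HDL receptor *Scarb1* (5.91), and the TGF-beta receptors *Tgfbr2* (-2.30) and *Tgfbr1* (-1.52) were lower. In adventitial over alveolar cells 2 of these 10 were higher (*Kdr* 1.58, *Scarb1* 1.20) and 1 lower (*Cd36* -1.53), beside 7.25% and 4.65% of all genes, all 3 at under 9 CPM in both groups. Of 10 clathrin and flotillin genes, which serve other routes of membrane uptake, 0 were higher and 1 lower in endothelial over stromal cells (*Dab2*, -1.60, adjusted p = 0.00122), beside the same 14.7% and 17.4% of all genes, with a median of 0.02.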

How the data were processed

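Per the labels and the submitters' processing notes, 2 libraries were aligned to mm10 with Cell Ranger 5.0.1. The authors deposited UMI counts per gene and cell barcode, which were used unchanged. The annotation used for counting is not given in the sources used here, and positions are from GENCODE vM21 on GRCm38.

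UMIs were summed per cell group and library and divided by the sum of all genes (CPM). Tests used edgeR 4.0.16 in R 4.3.3 (quasi-likelihood, two-sided, TMM, filterByExpr, terms for group and library), with 8 sums for the classes and 14 for the smaller groups, and p-values adjusted by Benjamini-Hochberg over the genes of each fit. A gene was called at an adjusted p under 0.05. DESeq2 1.42.0 was an alternative. Other steps used Python 3.11.15 with numpy 2.4.6 and scipy 1.17.1.

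Intervals of shares are exact 95% intervals over the cells of a library. Groups at 0 UMIs were put at 3 UMIs when a ratio was needed. Alternatives changed the tool, scaling, low-count filter, library term, groups in the fit, marker minimum, mixed cells, mitochondrial limit, depth, deepest cells, *Dcn* minimum and aerocyte margin. Cells meeting 0 or more than 1 class rule were left out, and no doublet caller was run. The members, lists and groups were chosen with earlier results of these data known. Named are the 5 genes, up to 4 called genes per list and comparison with the largest change, and the 5 genes with the highest r to each.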

Additional observations from a re-analysis of the deposited data

How the results depend on the processing

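Over the alternatives with a test, 397 of 444 values of the 5 genes kept their direction and their side of the threshold, 12 became calls, 27 lost the call and 8 turned. Where a value moved, the cause was not tested. The number of the 5 genes called in endothelial over stromal cells fell from 4 to 2 without a library term. In stromal over epithelial cells it fell from 5 to 2 by DESeq2, 2 without a library term and 3 in thinned cells, and in epithelial over immune cells from 4 to 2 with 5 marker UMIs and 2 in thinned cells. In adventitial over alveolar cells it went from 1 to 2 with RLE factors, 0 without a library term and 4 in a fit of these groups alone.

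Thinned cells were classed anew, so depth and cells changed together (endothelial cells of library 2 from 360 to 637, adventitial from 998 to 493). The number of all genes called in them was 2501 (3798 unthinned) in endothelial over stromal, 2416 (4703) in endothelial over epithelial, 3227 (5443) in stromal over epithelial, 3245 (5609) in epithelial over immune, 908 (1562) in adventitial over alveolar and 115 (294) in aerocyte over other endothelial cells. Without a library term it was 333 and 39 in the last pair of comparisons, and in fits of the compared groups alone 2773 and 456. With no filter on low counts it was 509 for aerocytes. Turned values were *Cavin3* at -0.0809 (thinned) and *Cavin2* at -1.99 (without AT1-marker cells) in epithelial over immune cells. *Cavin2* in aerocyte over other endothelial cells turned from -0.01 to 0.0286 (no filter), 0.0566 (no library term), 0.0847 (these groups alone), 0.147 (totals in place of TMM factors, chosen after seeing the data), 0.0214 (5 marker UMIs) and 0.00404 (without the deepest 10% of cells). Of the 5 genes most like *Cav1*, *Cavin2* and *Cavin3*, 3 each were shared at a pseudocount of 10, and 3 for *Cav1* at a minimum of 50 CPM.

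Totals in place of TMM factors moved the median gene by 0.17, 0.70, 0.55, 0.27 and -0.27 on the log2 scale in the 5 class comparisons, in the order of the report. The share of calls that were higher then went from 45.9% to 55.0% in endothelial over stromal cells (52.2% by DESeq2). It went from 50.4% to 77.3% (endothelial over epithelial), 52.5% to 75.4% (stromal over epithelial), 53.3% to 63.7% (stromal over immune) and 50.7% to 39.8% (epithelial over immune). By DESeq2 it was 42.9% in stromal over immune cells and 39.4% (49.7% by edgeR) for aerocytes, and DESeq2 moved the median by -0.15 in the former and -0.11 in stromal over epithelial cells, with -0.12 for RLE factors in the former. Leaving out a library leaves no residual degrees of freedom, so it gives ratios with no count of calls. Set against the scaled fits, these plain CPM ratios moved by over 1 SD of the library ratios for 26 values and stayed for 7 without library 2, and for 13 and 22 without library 1. For *Cav1* and *Cavin2* in epithelial over immune cells library 1 alone gives no direction, with 0 immune UMIs. Depth limits the endothelial class of library 1, where 3 UMIs make 25.1 CPM, and immune cells there, where they make 3.42.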
